A study of Mus musculus with 74 samples.

Results

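A row of 6 neighbouring genes on mouse chromosome 4 encodes the Cyp4a enzymes *Cyp4a10*, *Cyp4a14*, *Cyp4a31*, *Cyp4a32*, *Cyp4a12a* and *Cyp4a12b*. They were taken by their symbols from the 14583 genes of the liver RNA-seq table, and every ChIP-seq peak that the deposited annotation assigns to one of them was taken from 11 peak tables, which gave 9 to 32 peaks in each of 13 comparisons of knockout with WT livers. The genes were chosen by name, not by a measured value, but with earlier results of these data known. The study compared whole livers of mice on chow diet, C57BL/6 by the labels and 8 to 12 weeks old. The column names of the histone mark libraries of the *Gps2* line read fed, and those of the other libraries give no feeding state. In *Gps2* LKO mice both *Gps2* alleles are flanked by loxP sites (Gps2 flox/flox) and the Cre recombinase is driven by the albumin promoter (Alb-Cre), which is active in hepatocytes, and the controls labelled WT are Gps2 flox/flox mice without the deletion. *Ncor* LKO and *Smrt* LKO mice lack either corepressor gene in the liver, each line with its own WT group, and the driver of their deletion is not given in the sources used here. *Ppara* KO mice, of B6;129S4 origin, lack the gene in the whole body. RNA-seq had 4 WT and 4 *Gps2* LKO livers. ChIP-seq had 3 libraries per group, apart from 2 per group for PPARα in the *Ppara* line and for the histone marks in the *Gps2* line, and 1 per group for GPS2 and for RNA polymerase II (Pol II) in the *Gps2* line. The study's methods call all replicate experiments biological replicates and state that each ChIP sample pooled several immunoprecipitations. Where nothing says that libraries are separate animals, p-values measure only the spread between these samples.

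The Cyp4a enzymes are cytochrome P450 monooxygenases of the endoplasmic reticulum that put a hydroxyl group on the last carbon of fatty acids and of eicosanoids. This omega-hydroxylation is followed by oxidation to a dicarboxylic acid, which is shortened in peroxisomes. *Cyp4a10* and *Cyp4a14* are well known target genes of PPARα, the nuclear receptor that switches on fatty acid oxidation in the fasted liver, while *Cyp4a12a* and *Cyp4a12b* are expressed mainly in the livers of male mice. GPS2 is a subunit of the corepressor complex that NCOR and SMRT assemble around HDAC3.

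In mm9 the 6 genes span 322.6 kb of chromosome 4. *Cyp4a12a* lies at chr4:114971651-115005420 and *Cyp4a12b* at chr4:115084229-115111639, both on the plus strand. *Cyp4a14* follows on the minus strand at chr4:115158805-115168747. *Cyp4a10* at chr4:115190869-115206254, *Cyp4a31* at chr4:115236254-115251618 and *Cyp4a32* at chr4:115273574-115294207 lie beyond it on the plus strand. The reference transcripts of *Cyp4a10*, *Cyp4a31* and *Cyp4a32* share 95.6% to 97.2% of their aligned bases, those of *Cyp4a12a* and *Cyp4a12b* share 98.3%, and *Cyp4a14* shares 68.0% to 75.7% with the others. The split of reads and tags within the group of *Cyp4a10*, *Cyp4a31* and *Cyp4a32* and within the pair *Cyp4a12a* and *Cyp4a12b* is therefore uncertain, and values of single members are given with sums over near-identical members.

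The sites upstream of *Cyp4a10*, *Cyp4a31* and *Cyp4a32* where PPARα was bound most in WT livers are near copies of one another. The sequences below are the 200 mm9 bases around the centres of the tallest PPARα peaks of *Cyp4a10*, *Cyp4a31*, *Cyp4a32* and *Cyp4a14* in the *Gps2* line, shown because the ChIP results turn on them, followed by the promoter peak of *Cyp4a12b*, where PPARα signal was low. Positions are bases from the start site of the gene, negative upstream, and capitals mark AGGTCA or its reverse complement TGACCT, the half-site of nuclear receptors such as PPARα.
Cyp4a10 at -4222, chr4:115186570-115186769, plus strand: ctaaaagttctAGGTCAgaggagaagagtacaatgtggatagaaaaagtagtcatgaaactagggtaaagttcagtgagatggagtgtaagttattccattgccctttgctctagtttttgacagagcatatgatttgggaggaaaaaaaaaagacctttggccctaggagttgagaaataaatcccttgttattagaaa
Cyp4a31 at -8003, chr4:115228151-115228350, plus strand: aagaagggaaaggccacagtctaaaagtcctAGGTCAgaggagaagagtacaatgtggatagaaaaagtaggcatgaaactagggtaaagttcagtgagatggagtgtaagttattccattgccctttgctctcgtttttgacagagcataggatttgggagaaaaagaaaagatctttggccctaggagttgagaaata
Cyp4a32 at -4018, chr4:115269425-115269624, plus strand: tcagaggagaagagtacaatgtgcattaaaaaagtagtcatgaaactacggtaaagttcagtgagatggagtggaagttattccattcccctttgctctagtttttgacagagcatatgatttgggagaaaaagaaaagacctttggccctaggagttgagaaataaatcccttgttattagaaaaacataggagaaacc
Cyp4a14 at -1551, chr4:115170197-115170396, minus strand: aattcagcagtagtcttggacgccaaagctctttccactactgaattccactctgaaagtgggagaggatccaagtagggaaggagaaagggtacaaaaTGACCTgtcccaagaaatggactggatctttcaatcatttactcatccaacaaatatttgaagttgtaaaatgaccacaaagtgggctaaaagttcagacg
Cyp4a12b at -121, chr4:115084008-115084207, plus strand: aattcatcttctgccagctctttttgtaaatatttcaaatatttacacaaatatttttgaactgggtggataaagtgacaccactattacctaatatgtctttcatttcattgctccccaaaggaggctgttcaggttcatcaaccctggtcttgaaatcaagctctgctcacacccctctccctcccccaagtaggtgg

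Over their aligned bases, the upstream sites of *Cyp4a31* and *Cyp4a10* were 96.7% identical, those of *Cyp4a10* and *Cyp4a32* 96.2%, and those of *Cyp4a31* and *Cyp4a32* 94.0%. A second set of copies lies in the first kilobase or so of the genes, at 1006 of *Cyp4a10*, 1005 of *Cyp4a31* and 966 of *Cyp4a32*, with 90.6% to 93.6% identity. The promoter sites of *Cyp4a12a* (-73) and *Cyp4a12b* (-121) were 97.7% identical. An exact half-site on either strand was in 10 of the 23 Cyp4a windows of this table and in 31.8% of all 102417 PPARα peak windows of the same length. A pair of AGGTCA repeats 1 base apart (DR1, either strand, up to 2 mismatches in its 12 fixed bases) was in 3 of the 23 windows and in 13.3% of all windows. These matches are letters in a window and not tested sites, and an exact half-site can also be part of a DR1 match.

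Each ChIP library held 7.90 M to 46.1 M tags. In every comparison the value of a peak is its tags per 10000000 tags of the library, written below as tags per 10M, and a change is the log2 fold change of edgeR on raw tags scaled to the library totals. A gene or peak is called changed at an adjusted p (edgeR's quasi-likelihood test, Benjamini-Hochberg over the whole table) below 0.05. In the *Gps2* line RNA, *Gps2* was lower in every LKO library (9.17 to 12.9 against 15.1 to 16.7 CPM, which are reads scaled to a common library size with TMM). The study's methods describe male mice, and the RNA libraries fit that label, with reads of Y-linked genes in all 8. In H3K27ac ChIP, the *Ncor* line libraries had 302 to 366 tags per 10M at Y-linked genes and at most 4.92 at *Xist*, whereas all 6 *Smrt* line libraries had 0.0 at Y-linked genes and 249 to 289 at *Xist*, against the methods. The 3 WT libraries of PPARα in the *Gps2* line differed from each other by less than the sampling noise of their tags and were counted as 1 sample.

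In *Gps2* LKO livers the RNA of the Cyp4a cluster changed its composition: *Cyp4a14*, *Cyp4a10* and *Cyp4a31* rose while *Cyp4a12a* and *Cyp4a12b* fell. Of the 6 genes, 5 were called, 3 higher and 2 lower, against 44.8% of all 12220 genes tested (23.4% higher and 21.4% lower). Over all 12220 genes the fold change fell with exon length (Spearman rho -0.40 across genes, which are not independent replicates). The part of this trend in the Cyp4a changes was not tested. With the trend removed these 5 genes and *Cyp4a32* were called, as were 2310 of all 12220 genes higher and 3259 lower. The log2 fold change of *Cyp4a10* then went from 0.76 to 0.61 and that of *Cyp4a12a* from -1.90 to -2.01. In bulk liver, fewer cells of a type and less RNA per cell cannot be told apart. *Cyp4a14*, the member with the largest change, had 4.03, 4.16, 3.38 and 5.16 CPM in the WT livers and 128, 126, 109 and 118 in the LKO livers. All 4 LKO values lay far above all 4 WT values. The means were 4.18 ± 0.736 and 120 ± 8.82 (SD, n = 4), a 28.8-fold rise with a log2 fold change of 4.85 (SE 0.11, adjusted p = 6.8e-13).

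*Cyp4a10* and *Cyp4a31*, close paralogs that hydroxylate medium and long chain fatty acids, rose far less. *Cyp4a10* had 19.0, 21.2, 19.0 and 21.3 CPM in WT and 37.6, 35.0, 28.3 and 35.2 in the LKO group, a log2 fold change of 0.76 (SE 0.094, adjusted p = 3.5e-05). *Cyp4a31* had 3.29, 2.73, 3.84 and 2.93 in WT and 5.83, 6.71, 3.97 and 4.45 in the LKO samples, a log2 fold change of 0.72 (SE 0.18, adjusted p = 0.0060). In both genes the groups did not overlap, although LKO library 3 came close to the WT range of *Cyp4a31*. *Cyp4a32* had 10.5, 10.5, 11.5 and 10.8 in WT and 9.49, 10.3, 8.67 and 9.96 in the LKO group. Its log2 fold change of -0.17 did not pass (SE 0.092, adjusted p = 0.151). It passed with the trend of fold change on exon length removed (-0.33, adjusted p = 0.0088, with 26.7% of all genes called lower). It also passed without LKO library 2 (-0.23, adjusted p = 0.0476), when 3545 of 12315 genes were called lower. Across genes, LKO library 2 differed from each other LKO library by 19.8 to 29.1 times the sampling noise of reads. Other LKO pairs were at 1.53 to 9.87 and WT pairs at 1.69 to 2.53. Summed over the 3 near-identical genes, the level was 34.1 ± 0.937 CPM in WT and 48.9 ± 5.46 in the LKO samples (SD, n = 4), a log2 fold change of 0.52 (SE 0.084, adjusted p = 3.3e-04).

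*Cyp4a12a*, the main arachidonic acid omega-hydroxylase of male mouse tissue, was the highest member in WT livers. It had 269, 270, 261 and 266 CPM in WT and 83.4, 80.7, 51.4 and 70.0 in the LKO group, with no overlap. The level was 3.73 times higher in WT than in LKO livers, a log2 fold change of -1.90 (SE 0.12, adjusted p = 3.3e-08). *Cyp4a12b* had 68.6, 66.9, 62.2 and 63.0 in WT and 36.4, 34.3, 22.2 and 37.5 in the LKO group, also without overlap, a log2 fold change of -1.0 (SE 0.13, adjusted p = 4.1e-05). The sum of the pair fell from 332 ± 6.90 to 104 ± 20.9 CPM (SD, n = 4; log2 fold change -1.67, SE 0.12, adjusted p = 1.1e-07).

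**Figure D1:**
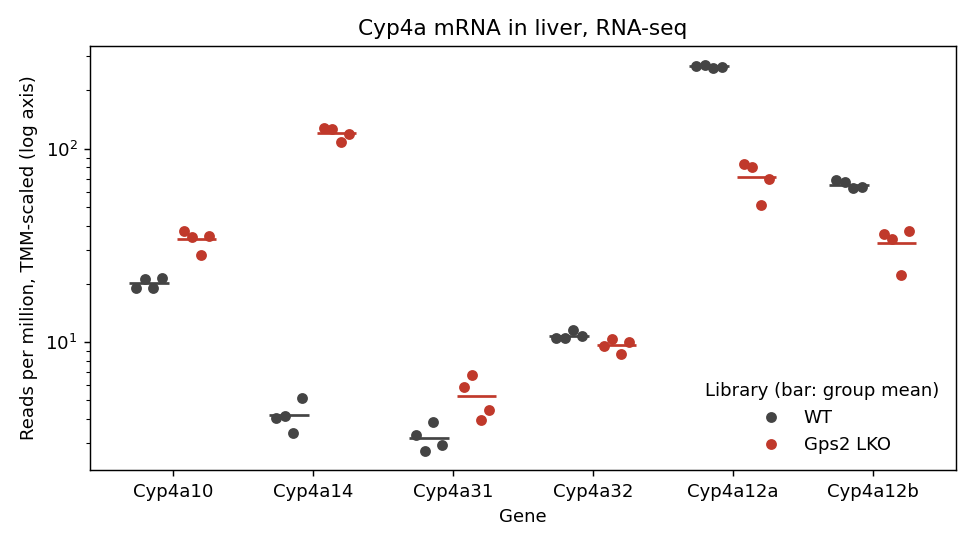
RNA level of each Cyp4a gene (x axis) in CPM on a log axis (y axis), 1 point per library and a bar at the mean of 4 WT (grey) or 4 *Gps2* LKO livers (red). *Cyp4a14* moves from 4.18 to 120 CPM and *Cyp4a12a* from 266 to 71.4, while the points of *Cyp4a32* lie close together.

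Per length of exon (RPKM), the order of the levels differed between the genotypes. In WT livers *Cyp4a12a* led with 110 RPKM, followed by *Cyp4a12b* with 27.2, *Cyp4a10* with 9.65 and *Cyp4a32* with 5.65, and each of these stood apart from the next. *Cyp4a14* (1.68) and *Cyp4a31* (1.27) came last, with overlapping libraries. In LKO livers *Cyp4a14* led with 48.2 RPKM and *Cyp4a12a* was next with 29.5, without overlap between them. *Cyp4a10* (16.3) and *Cyp4a12b* (13.6) overlapped, and *Cyp4a32* (5.02) and *Cyp4a31* (2.09) followed. Added over the 6 genes, the level was 155 ± 2.75 RPKM in WT and 115 ± 14.7 in the LKO samples (SD, n = 4). *Cyp4a12a* and *Cyp4a12b* together held 88.3% ± 0.479 of that sum in WT and 37.3% ± 3.17 in the LKO group, and *Cyp4a14* held 1.08% ± 0.185 and 42.3% ± 2.78 (SD, n = 4). The log2 ratio of *Cyp4a14* to *Cyp4a12a* RPKM moved from -6.05 ± 0.242 to 0.73 ± 0.212 (SD, n = 4).

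**Figure D2:**
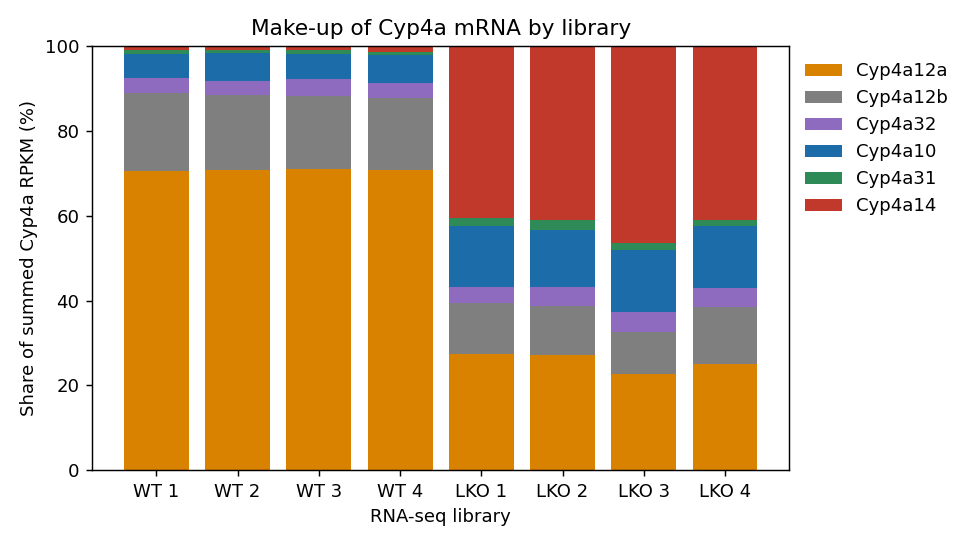
Share of each Cyp4a gene in the summed Cyp4a RPKM (y axis, percent) in each of the 4 WT and 4 *Gps2* LKO libraries (x axis, stacked bars). The combined share of *Cyp4a12a* and *Cyp4a12b* is 87.7% to 88.8% in every WT library and 32.5% to 39.3% in the LKO libraries.

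Genes whose pattern over the 8 RNA libraries was closest to that of *Cyp4a14* or *Cyp4a12a* were sought among 8566 other genes with a mean of at least 100 reads. Likeness was the root mean square difference of log2 CPM after adding 0.5 CPM, centred on the WT mean. The added 0.5 CPM shrinks the change of genes with low CPM in WT. Without it, in the edgeR fit, the log2 fold change was 4.85 for *Cyp4a14*, 6.60 for *Hao2* and 5.49 for *Cux2*. Closest to *Cyp4a14* were *Cyp2c69* (0.289), *Hao2* (0.311), *Apoa4* (0.353), *Cyp2c40* (0.403) and *Cux2* (0.410). *Cyp2c69*, *Hao2* and *Cux2* are also in the list of genes known to be higher in female liver. That list was chosen with earlier results of these data known, so this overlap holds no support of its own. Closest to *Cyp4a12a* were *Bcl6* (0.160), *Rarres1* (0.199), *Mup5* (0.254), *Ddc* (0.293) and *Mup9* (0.315).

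The other genes of the pathway moved less than *Cyp4a14*. Among the other Cyp4 genes, 4 of 7 tested rose and 1 fell: *Cyp4f16* (log2 fold change 1.06), *Cyp4f14* (0.63), *Cyp4b1* (0.55) and *Cyp4f15* (0.23) rose and *Cyp4v3* (-1.08) fell. Of the 4 electron donors of P450 enzymes, the reductase *Por* (0.58) and *Cyb5r3* (0.49) rose and *Cyb5b* fell (-0.22). Of 7 alcohol and aldehyde dehydrogenases that take the omega-hydroxylated fatty acid further, 5 rose and 0 fell, with a median of 0.24 and *Aldh3a2* (0.84) and *Adh1* (0.71) in front. Of 16 genes of dicarboxylic acid and peroxisomal chain shortening, 6 rose and 5 fell around a median of -0.01. The thioesterases *Acot3* (3.98) and *Acot4* (1.27) and the thiolase *Acaa1b* (1.09) rose, and *Pex11a* (-0.63) and *Scp2* (-0.48) fell. The PPARα target *Ehhadh* (0.11, adjusted p = 0.0899) did not pass. Of 6 receptor genes, *Pparg* rose (0.70), *Ppard* (-0.50), *Ppara* (-0.39) and *Rxra* (-0.26) fell. All of these are log2 fold changes from the same fit, in which the median of all genes was 0.03. In that fit 23.4% of all genes were called higher and 21.4% lower.

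Other genes known from male liver moved with *Cyp4a12a* and *Cyp4a12b*, in the list of genes known to be higher in male liver. Of 15 such genes, 14 fell and 0 rose, where 21.4% of all genes were called lower and 23.4% higher. The median log2 fold change was -1.08, and those that fell included *Moxd1* (-8.43), *Mup1* (-6.89), *Selenbp2* (-2.71), *Elovl3* (-2.68) and *Cyp7b1* (-2.64). *Mup20* did not pass (0.05, adjusted p = 0.669). This list was chosen with earlier results of these data known, so its counts describe the listed genes and are not a test. Of the genes known to be higher in female liver, 9 of 15 measured passed the low-count filter, and all 9 rose, with values such as *Cyp2b9* 8.74, *Cyp2a4* 8.51, *Hao2* 6.60 and *Cux2* 5.49. A gene near 0 in WT passed that filter only through the LKO group, so this count holds no support of its own. Among 16 genes within 500 kb of the cluster, leaving out entries placed over more than a megabase, 12 were tested. Of these 4 rose and 1 fell, against 23.4% and 21.4% of all genes. *Pdzk1ip1* (1.66) had the largest change of them, *Cyp4b1*, *Uqcrh* and *Faah* rose less, and *Efcab14* fell (-0.41).

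Markers of other liver cells moved with the same contrast, in which 23.4% of all genes were called higher and 21.4% lower. Summed Kupffer cell markers went from 135 to 139 CPM in WT to 176 to 206 in the LKO samples, with 6 of 7 called higher. Stellate cell markers went from 135 to 144 up to 240 to 255 with 5 of 5 higher, and cholangiocyte markers from 64.4 to 68.8 up to 91.2 to 112 with 3 of 5 higher. Sinusoidal endothelial markers went from 107 to 113 up to 120 to 131 with 2 of 5 higher, and lymphocyte markers stayed at or below 2.17. Hepatocyte markers, led by *Alb*, went from 103446 to 107334 up to 140838 to 167872, with 3 of 6 higher and *Hnf4a* lower, so the tissue label fits. The part of these shifts in the Cyp4a changes was not tested.

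GPS2 was bound at the Cyp4a sites of *Gps2* WT livers and nearly all of those tags were missing in the *Gps2* LKO library. With 1 library per group there is no test. The *Cyp4a10* peak at 1029 had 82 tags in WT and 0 in LKO, which is at least 26.1-fold higher in WT when a floor of 3 tags is set for the LKO library. The peak of the same gene at -4151 had 70 and 1 tags, a LKO to WT ratio of 0.0150 (95% interval 0.000374 to 0.0862, counting error only). *Cyp4a31* at -8072 had 52 and 1 tags (ratio 0.0201, 0.000501 to 0.117), *Cyp4a14* at -1595 had 46 and 2 (0.0456, 0.00536 to 0.174), and *Cyp4a32* at -3950 had 41 and 0. *Cyp4a12a* at 27230 had 14 and 1 tags and *Cyp4a12b* at -134 had 9 and 0. All 15 Cyp4a peaks were lower by a log2 ratio of at least 1, as were 99.3% of all 49018 peaks, and 11 of the 15 were so when scaled to the tags in peaks, as were 45.2% of all peaks. Each of those 11 had 0 or 1 tags in the LKO library, so the count under that scaling turns on single tags and holds no support of its own. The LKO library had 0.310% of its tags in peaks and the WT library 7.07%.

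GPS2 tags at the cluster were also fewer in *Ncor* LKO and in *Ppara* KO livers, without a single call. In the *Ncor* line, the *Cyp4a10* peak at -4107 had 63.6, 52.4 and 16.1 tags per 10M in WT and 8.87, 8.27 and 6.75 in the LKO group, a log2 fold change of -2.45 (SE 0.65, adjusted p = 0.0761). WT library 3 was far below the other 2 there and elsewhere. Of 15 Cyp4a peaks, 7 had every LKO library below every WT library, against 26.6% of all 56278 peaks. None was called (0.0338% of all peaks), 11 had an unadjusted p under 0.05 (34.3%), 3 were called lower with TMM scaling (0.458% of all peaks) and 1 with DESeq2 (0.165%), and 11 were called lower without WT library 3, when 59.1% of all peaks were. The median change of the Cyp4a peaks was -2.13 and that of all peaks -1.12, and relative to the latter the *Cyp4a10* peak at -4107 was at -1.33. The WT libraries of this line had 3.07% to 8.23% of their tags in peaks and the LKO libraries 2.45% to 3.15%. In the *Ppara* line, *Cyp4a10* at 1041 had 25.7, 33.2 and 42.3 tags per 10M in WT and 10.9, 6.05 and 6.49 in KO livers (-2.09, SE 0.58, adjusted p = 0.0609). *Cyp4a32* at -3938 had a log2 fold change of -2.23 (adjusted p = 0.0596). Of 10 peaks, 7 did not overlap (31.3% of all 27842 peaks), 0 were called (0.273%), 0 were called with TMM (0.151%) or DESeq2 (0.103%), and 7 had an unadjusted p under 0.05 (23.0%). The medians were -1.80 for the Cyp4a peaks and -0.93 for all peaks. With TMM scaling *Cyp4a10* at 1041 was at -1.18 and *Cyp4a32* at -3938 at -1.28, and *Cyp4a14* at -1554 went from -1.09 to -0.20. The WT libraries of the *Ppara* line had 2.42% to 4.39% of their tags in peaks and the KO libraries 1.07% to 2.06%. No GPS2 peak of this table was assigned to *Cyp4a12a* or *Cyp4a12b*.

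PPARα binding at the upstream sites printed above fell in *Ppara* KO livers, which lack the receptor, to at most 5 tags per library at the printed sites. *Cyp4a10* at -4219 had 36.8 and 41.3 tags per 10M in WT and 3.43 and 1.47 in KO livers (log2 fold change -3.93, SE 0.38, adjusted p = 7.3e-06). *Cyp4a31* at -8017 had 33.3 and 39.0 in WT and 2.06 and 0.733 in KO livers (-4.58, SE 0.43, adjusted p = 6.9e-06). *Cyp4a14* at -1569 had 21.2 and 22.9 in WT and 0.687 and 1.47 in KO livers (-4.26, SE 0.52, adjusted p = 3.5e-05). At all 3 sites both KO libraries lay far below both WT libraries. *Cyp4a32* at -4026 and -4401 (-4.06 and -3.43), *Cyp4a31* at 1017 (-4.29) and *Cyp4a10* at 988 (-2.67) were called as well. Of 19 peaks, 7 were called lower against 27.6% of all 40241 peaks, and 15 did not overlap against 68.3%. The 7 called peaks were among the 11 of *Cyp4a10*, *Cyp4a14*, *Cyp4a31* and *Cyp4a32* (median -3.43). None of the 8 peaks of *Cyp4a12a* and *Cyp4a12b* was called (median -1.58). The tallest of those, *Cyp4a12a* at 27247, had 4.25 and 4.59 tags per 10M in WT and 1.37 and 0.733 in KO livers (-1.97, adjusted p = 0.0941). The KO libraries had 0.581% to 0.652% of their tags in peaks and the WT libraries 2.14% to 2.44%, and the median of all peaks was -1.68. Under TMM scaling, which moved that median to -0.22, 5 of the 7 calls held (3.15% of all peaks were called lower), without *Cyp4a10* at 988 (-1.20) and *Cyp4a32* at -4401 (-2.01), and without either WT library 0 peaks were called.

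In *Gps2* LKO livers the same upstream sites had more PPARα tags than in WT livers, with log2 fold changes below the median of all peaks of the table. The 3 WT values given here are those of libraries counted as 1 sample, so each adjusted p rests on 1 WT sample and takes its spread from the LKO libraries alone. *Cyp4a31* at -8003 had 156, 177 and 153 tags per 10M in the WT libraries and 264, 244 and 189 in the LKO libraries (log2 fold change 0.50, SE 0.26, adjusted p = 0.134). *Cyp4a10* at -4222 had 125, 145 and 161 in WT and 220, 204 and 171 in the LKO samples (0.44, SE 0.25, adjusted p = 0.179). *Cyp4a14* at -1551 had 104, 94.0 and 110 in WT and 161, 146 and 138 in the LKO group (0.53, SE 0.25, adjusted p = 0.102). Every LKO library was above every WT library at these 3 sites and at *Cyp4a32* -4018 (0.53), but the sign of all 4 turned with TMM scaling, to -0.11, -0.17, -0.08 and -0.08. The median of all peaks was 0.62 scaled to library totals and 0.02 with TMM, and the LKO libraries had 28.9% to 32.1% of their tags in peaks where WT had 19.2% to 21.9%.

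The called peaks of this comparison were 3 low ones inside and between the genes. *Cyp4a14* at -7883 had 7.59, 10.5 and 9.02 tags per 10M in WT and 24.1, 25.6 and 20.5 in the LKO samples (1.33, SE 0.38, adjusted p = 0.0071). *Cyp4a14* at 1783 had 6.33, 7.60 and 2.25 in WT and 24.1, 8.53 and 14.7 in the LKO group (1.46, SE 0.47, adjusted p = 0.0154), and *Cyp4a10* at 11774 had 0, 1.90 and 2.25 in WT and 6.90, 6.63 and 9.97 in the LKO samples (2.41, SE 0.84, adjusted p = 0.0271). They were 3 of 23 peaks, where 21.5% of all 102519 peaks were called higher. With TMM scaling, which sets the rise of all peaks aside, they were at 0.73, 0.86 and 1.82 and none was called (0.539% of all peaks were called higher). Of the 15 peaks at *Cyp4a10*, *Cyp4a14*, *Cyp4a31* and *Cyp4a32*, 12 had all LKO libraries above all WT libraries, and 1 of 8 at *Cyp4a12a* and *Cyp4a12b* did, against 46.7% of all peaks.

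In *Ncor* LKO livers PPARα signal at the upstream sites overlapped that of WT livers. *Cyp4a10* at -4205 had 131, 125 and 61.8 tags per 10M in WT and 108, 102 and 128 in the LKO group (0.09, SE 0.41, with -0.01 under TMM scaling). Called were 2 low peaks near or past the far ends of genes, of 32 peaks (0.151% of all 86168 peaks were called higher). The count rests on the fit, with 8 calls under TMM scaling (5 higher and 3 lower, against 1.27% and 0.464% of all peaks), 4 with DESeq2 (0.76%), 6 without WT library 3 (0.969%) and 1 without any other single library. *Cyp4a10* at 16721 had 1.23, 3.74 and 0.951 in WT and 14.3, 29.9 and 38.3 in the LKO samples (3.75, SE 0.62, adjusted p = 4.7e-05). *Cyp4a32* at 22198 had 1.23, 1.07 and 0.951 in WT and 5.70, 5.87 and 14 in the LKO group (2.90, SE 0.72, adjusted p = 0.0362). Of the 22 peaks at *Cyp4a10*, *Cyp4a14*, *Cyp4a31* and *Cyp4a32*, 9 had the LKO libraries above WT, against 5.99% of all peaks, and 0 below. Both called peaks and others of these 9 were near 0 in WT. Such peaks could enter the peak list only through the LKO group, so this count and the 2 calls hold no support of their own. Of the 10 peaks at *Cyp4a12a* and *Cyp4a12b*, 0 were above and 2 were below (2.01% of all peaks), both at the promoters. *Cyp4a12b* at -100 had 18.5, 16.6 and 8.56 in WT and 3.99, 4.27 and 6.08 in the LKO samples (-1.59, SE 0.54, adjusted p = 0.350). *Cyp4a12a* at -71 had a log2 fold change of -1.42 (adjusted p = 0.575).

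**Figure D3:**
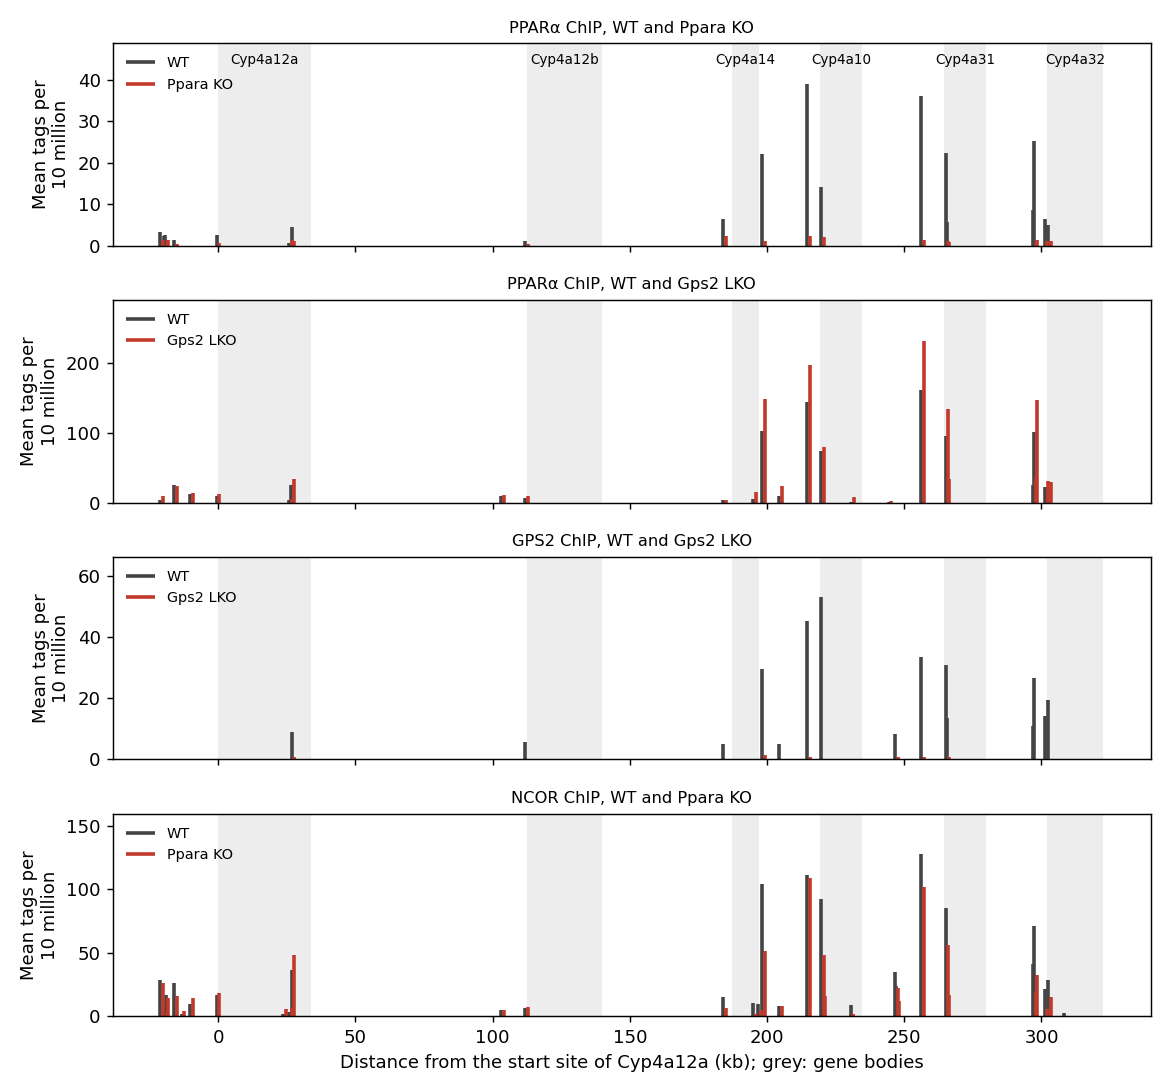
Mean tags per 10M (y axis) at each Cyp4a peak against the distance of the peak from the *Cyp4a12a* start in kb (x axis), for PPARα in the *Ppara* and *Gps2* lines, GPS2 in the *Gps2* line and NCOR in the *Ppara* line, with grey bars for the gene bodies and 1 colour each for WT and knockout. The tall PPARα peaks stand upstream of *Cyp4a14*, *Cyp4a10*, *Cyp4a31* and *Cyp4a32*, with further peaks inside *Cyp4a10* and *Cyp4a31*. At the upstream sites of *Cyp4a31* and *Cyp4a10* single libraries drop from 33.3 to 41.3 tags per 10M to at most 3.43 in *Ppara* KO livers.

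NCOR occupancy of the cluster was lower in *Ppara* KO livers at sites of *Cyp4a10*, *Cyp4a14*, *Cyp4a31* and *Cyp4a32*, by different amounts at neighbouring sites. *Cyp4a14* at -1535 had 102, 111 and 99.4 tags per 10M in WT and 64.6, 68.7 and 22.1 in KO livers (log2 fold change -1.01, SE 0.21, adjusted p = 2.8e-04). *Cyp4a31* at 1388 had 37.4, 80.8 and 37.9 in WT and 15.5, 24.9 and 10.7 in KO livers (-1.59, SE 0.31, adjusted p = 5.3e-05). *Cyp4a32* at -196 had 22.8, 21.5 and 21.1 in WT and 4.09, 8.08 and 4.27 in KO livers (-1.95, SE 0.41, adjusted p = 3.1e-04). None of these groups overlapped. *Cyp4a32* at -3983 (-1.12) and -4397 (-1.18), *Cyp4a10* at 1023 (-0.95) and 11763 (-2.11) and *Cyp4a14* at 1785 (-2.53) were also called. *Cyp4a10* at -4180, among the tallest sites, had 107, 119 and 108 in WT and 129, 108 and 89.7 in KO livers, a log2 fold change of -0.03 (SE 0.18, adjusted p = 0.950) that turned to 0.27 with TMM scaling. *Cyp4a31* at -8065 was at -0.33 (adjusted p = 0.363). Of 31 peaks, 8 were called lower against 2.51% of all 115042 peaks, and DESeq2 called 1 (0.512%). The count was 4 without KO library 3 (1.22%) and 5 without WT library 3 (0.989%). All 8 were among the 19 peaks of *Cyp4a10*, *Cyp4a14*, *Cyp4a31* and *Cyp4a32*, of which 11 had KO below WT (18.8% of all peaks) and the median was -1.01, with -0.32 over all peaks. Among the 12 peaks of *Cyp4a12a* and *Cyp4a12b*, 0 were called, 0 had KO below WT and 3 had KO above WT (1.97% of all peaks), with a median of 0.13.

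In *Gps2* LKO livers 0 of 21 NCOR peaks of the cluster were called by edgeR (0.0173% of all 80813 peaks), with TMM scaling (0.444%) or by DESeq2 (0.206%), and 2 had an unadjusted p under 0.05 (2.79%). *Cyp4a10* at -4113 had 74.6, 57.5 and 35.9 tags per 10M in WT and 63.4, 91.0 and 32 in the LKO group (0.15, SE 0.43). Every LKO library was above every WT library at 2 of the 21 peaks (2.67% of all peaks), *Cyp4a32* at 952 (0.78) and the low *Cyp4a12b* peak at -13177 (2.76, with a WT mean of 0.301 tags per 10M), both named after their values were seen. The groups overlapped at the others, and the medians were 0.11 for the Cyp4a peaks and -0.03 for all peaks.

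Active marks of chromatin and Pol II were higher at *Cyp4a14* and *Cyp4a10* in *Gps2* LKO livers, with 1 call. H3K27ac marks active promoters and enhancers, and H3K4me3 marks active promoters. H3K4me3 at *Cyp4a14* (3933) had 33.9 and 55.4 tags per 10M in WT and 125 and 241 in the LKO samples, a log2 fold change of 2.04 (SE 0.30, adjusted p = 0.0048). It was the 1 peak called among 4 tested at the cluster (0.798% of all 22814 peaks were called higher), and it was not called without WT library 1 or by DESeq2 (0.837% of all peaks). *Cyp4a10* at 5241 (0.98, adjusted p = 0.302) and *Cyp4a32* at -1313 (0.56, adjusted p = 0.107) did not pass. H3K27ac at *Cyp4a14* (3933) had 71.6 and 126 in WT and 202 and 343 in the LKO group (1.46, SE 0.29, adjusted p = 0.0614). *Cyp4a10* at 5241 had 144 and 193 in WT and 257 and 333 in the LKO samples (0.80, adjusted p = 0.0653), and *Cyp4a31* at 292 had 39.6 and 48.3 in WT and 68.8 and 85.6 in the LKO group (0.81, adjusted p = 0.0801). The *Cyp4a12a* promoter overlapped, with 16.4 and 18.7 in WT and 23.7 and 12.2 in the LKO samples (0.02). Of 13 H3K27ac peaks tested, 0 were called (1.42% of all 47108 peaks), 5 had an unadjusted p under 0.05 (14.6%) and DESeq2 called 1 (1.08% of all peaks were called higher). At *Cyp4a10*, *Cyp4a14*, *Cyp4a31* and *Cyp4a32*, 5 of 6 peaks had LKO above WT, and at *Cyp4a12a* and *Cyp4a12b* 0 of 7, against 30.1% of all peaks. LKO was below WT at *Cyp4a31* -17827 (-0.26) and *Cyp4a12a* 2656 (-0.74), against 14.6% of all peaks.

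Pol II, with 1 library per group and no test, had 1 tag in WT and 35 in LKO at the *Cyp4a14* promoter (29), a ratio of 34.3 (95% interval 5.77 to 1393, counting error only). The *Cyp4a10* promoter (57) had 1 and 15 tags (14.7, 2.26 to 619). *Cyp4a32* (55) had 46 and 69 tags (1.47, 0.998 to 2.18), and *Cyp4a12a* at -17766 had 39 and 32 (0.804, 0.488 to 1.32). Of 9 peaks, 5 were higher by a log2 ratio of at least 1, all at *Cyp4a14* and *Cyp4a10*, against 7.5% of all 31434 peaks. Each of these 5 had 0 or 1 tags in WT and could enter the peak list only through the LKO library. The count therefore holds no support of its own.

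In *Ncor* LKO livers H3K27ac rose at *Cyp4a10*, *Cyp4a14*, *Cyp4a31* and *Cyp4a32* and fell at the promoters of *Cyp4a12a* and *Cyp4a12b*. At *Cyp4a10* (-757) the values were 275, 333 and 295 tags per 10M in WT and 679, 733 and 755 in *Ncor* LKO livers (log2 fold change 1.26, SE 0.10, adjusted p = 0.0015). At *Cyp4a31* (643) they were 97.2, 115 and 133 in WT and 296, 337 and 302 in the LKO group (1.44, SE 0.13, adjusted p = 0.0018). At *Cyp4a14* (-178) they were 106, 195 and 242 in WT and 448, 452 and 353 in the LKO samples (1.21, SE 0.24, adjusted p = 0.0267). The groups stood apart at each of these genes, and also at *Cyp4a32* (-2134), where the rise was smaller (0.68, SE 0.12, adjusted p = 0.0153). The *Cyp4a12a* promoter (-29) had 28.9, 23.0 and 28.0 in WT and 10.9, 12.2 and 8.02 in the LKO group (-1.36, SE 0.21, adjusted p = 0.0090). The *Cyp4a12b* promoter (5) had 20.7, 20.4 and 14.8 in WT and 4.07, 4.88 and 8.46 in the LKO samples (-1.66, SE 0.28, adjusted p = 0.0136). At both promoters every LKO library was below every WT library, and *Cyp4a12a* at 2525 was called too (-1.52, adjusted p = 0.0305).

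Of 30 H3K27ac peaks in the *Ncor* line, 14 rose and 3 fell, against 2.32% and 0.801% of all 68817 peaks, and TMM scaling gave 14 and 3 against 2.36% and 0.719%. The 14 were among the 22 peaks of *Cyp4a10*, *Cyp4a14*, *Cyp4a31* and *Cyp4a32*, of which 21 had LKO above WT (10.6% of all peaks) around a median of 1.27. The 3 were among the 8 of *Cyp4a12a* and *Cyp4a12b*, of which 6 had LKO below WT (9.04%) around a median of -1.22. The median of all peaks was -0.00. Without WT library 2 the calls were 8 (0.577% of all peaks). The called rises reached into the gene bodies, with *Cyp4a31* at 8632 (2.16, adjusted p = 0.0118) and *Cyp4a10* at 15250 (1.68, adjusted p = 0.0028).

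In *Smrt* LKO livers 0 of 30 peaks were called, 0.0% of all 68800 peaks, 0 had an unadjusted p under 0.05, and DESeq2 called 0 of the cluster (0.0989% of all peaks). *Cyp4a10* (-757) had 546, 652 and 586 tags per 10M in WT and 477, 673 and 596 in the LKO group, and *Cyp4a14* (-178) had 489, 583 and 468 in WT and 470, 622 and 622 in the LKO samples. The groups overlapped at 28 of the 30 peaks and LKO was below WT at 2 (6.09% of all peaks), with a median of -0.01 over the Cyp4a peaks and 0.01 over all peaks. The difference between both knockout effects was tested in 1 fit of the 4 groups. It was called at 6 of 30 peaks, all in favour of the *Ncor* LKO, against 0.33% of all 68818 peaks. These were *Cyp4a10* at -757 (log2 difference 1.29, adjusted p = 0.0100) and 15250 (1.67, adjusted p = 0.0122), *Cyp4a31* at 643 (1.47, adjusted p = 0.0149), -6521 (1.15, adjusted p = 0.0321) and -10557 (1.46, adjusted p = 0.0341), and *Cyp4a32* at -2134 (0.78, adjusted p = 0.0350). At *Cyp4a14* (-178) it was 1.05 (adjusted p = 0.175).

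The WT groups of both lines differed at the cluster before any knockout. At the *Cyp4a12a* promoter (-29) the *Smrt* line WT livers had 0.292, 0.736 and 1.43 tags per 10M where the *Ncor* line had 23.0 to 28.9, a log2 difference of -4.97 (SE 0.34, adjusted p = 2.8e-05), and at *Cyp4a12b* (5) it was -5.01 (SE 0.35, adjusted p = 3.1e-05). In the other direction, *Cyp4a14* (-178) was 1.5 higher on the log2 scale (SE 0.25, adjusted p = 0.0027) and *Cyp4a10* (-757) 0.98 higher (SE 0.10, adjusted p = 2.3e-04) in the *Smrt* line WT livers. *Cyp4a32* (-2134) did not pass (-0.21, adjusted p = 0.198). Of the 30 peaks, 7 were higher and 10 lower in the *Smrt* line, against 13.1% and 9.53% of all peaks. The same libraries carry the opposite *Xist* and Y-linked signals given above, so mouse line and sex cannot be told apart, and with so few tags a fall at the promoter peaks of *Cyp4a12a* and *Cyp4a12b* was not detectable in the *Smrt* line. The *Cyp4a12a* peak at -18684 had more tags there, with means of 56.1 tags per 10M in WT and 47.7 in the LKO group (-0.23, adjusted p = 0.854).

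**Figure D4:**
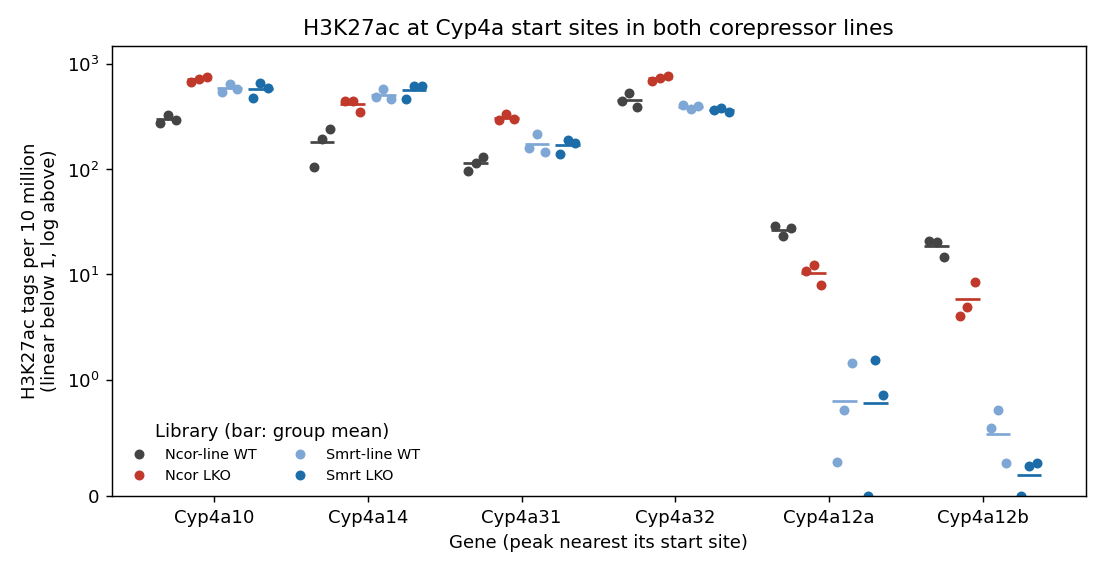
H3K27ac tags per 10M (y axis, log scale above 1 and linear below) at the peak nearest the start of each Cyp4a gene (x axis) in *Ncor* line WT, *Ncor* LKO, *Smrt* line WT and *Smrt* LKO livers, 1 point per library. *Ncor* LKO points lie above WT at *Cyp4a10*, *Cyp4a14*, *Cyp4a31* and *Cyp4a32* and below at *Cyp4a12a* and *Cyp4a12b*, where the highest *Smrt* line WT point is 1.43.

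**Figure D5:**
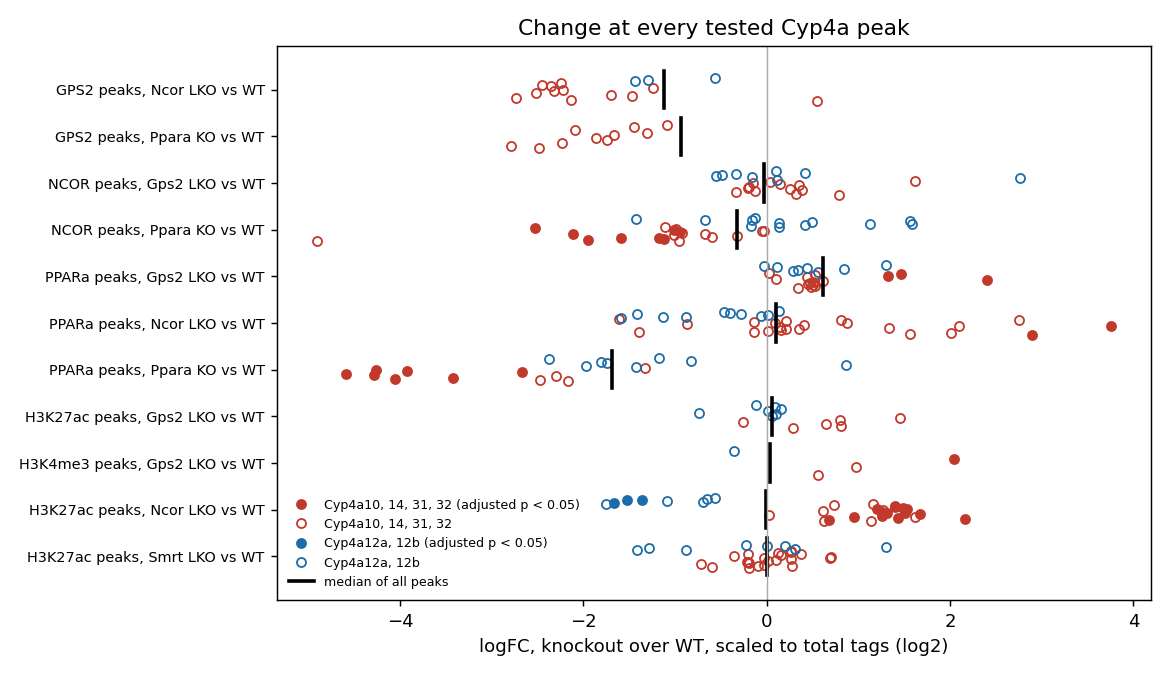
Log2 fold change, knockout over WT (x axis), of every tested Cyp4a peak in each comparison (y axis), red for *Cyp4a10*, *Cyp4a14*, *Cyp4a31* and *Cyp4a32*, blue for *Cyp4a12a* and *Cyp4a12b*, filled where the adjusted p is below 0.05, with a black tick at the median of all peaks. Both colours separate most for H3K27ac in the *Ncor* line, with medians of 1.27 and -1.22.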

How the data were processed

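The series held 74 libraries, of which 8 RNA-seq and 64 ChIP-seq libraries were used and 2 input libraries were not. Gene read counts were deposited by the authors as a table, and tag counts per merged peak were deposited by the authors as raw tables, both without normalization. The peak lists deposited by the authors carry a constant score, and only their positions were used. The submitters' processing notes name Bowtie2, HISAT2, SAMtools, HOMER and featureCounts, and the builds mm9, GRCm38 and mm10 without saying which file each made; 8 ChIP-seq libraries have mm9 alone. Peak positions and their distances to start sites match mm9 (NCBIM37) gene starts. Columns with the authors' own fold changes, p-values and calls were not used.

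The members and lists were chosen with earlier results of these data known. Counts were fitted over whole tables with edgeR 4.0.16 quasi-likelihood tests (R 4.3.3) and Benjamini-Hochberg adjustment, RNA with TMM and the low-count filter of edgeR, ChIP scaled to library totals, which keeps a change of all peaks but also follows the share of tags in peaks. Histone peaks of the *Gps2* line were tested where a deposited peak list of at least 2 of 4 libraries held them. Each sample's group came from its labels. DESeq2 1.42.0, TMM, a mean of at least 10 tags, a replicate block, exon-length detrending and leaving out libraries were tried. Scripts were tested on simulated data. Named are all members, and in each table the peak nearest the start, the peak with most tags and every called peak of a member, up to 5 called genes of each list, and the 5 genes most like *Cyp4a14* or *Cyp4a12a*. Further peaks and the neighbour filter were chosen after values were seen. Intervals (95%, exact, for the ratio of 2 Poisson counts) and floors (3 counts per library) cover counting error only. Sequences came from the NCBIM37 (mm9) genome.

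The depth was 13.2 M to 20.1 M counted reads for RNA and 7.90 M to 46.1 M tags for ChIP.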

Additional observations from a re-analysis of the deposited data

Results flagged for a closer look

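In LKO library 3 the composition of Cyp4a RNA stood apart from the other LKO libraries. *Cyp4a14* held 46.5% of summed RPKM there and 40.6% to 41.1% in the others, and *Cyp4a12a* with *Cyp4a12b* held 32.5% there and 38.4% to 39.3% in the others. Of 30 groups of 4 RNA libraries examined, these 2 had such a distant library, and chance gives about 1 in 20. Both are shares of the same sum in the same library and are not independent. A count this close to chance holds no support of its own.

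The H3K27ac effect of *Ncor* LKO exceeded that of *Smrt* LKO, by the test of the difference, at 6 peaks. The log2 differences were 1.29 at *Cyp4a10* -757, 1.67 at *Cyp4a10* 15250, 1.47 at *Cyp4a31* 643, 1.15 at *Cyp4a31* -6521, 1.46 at *Cyp4a31* -10557 and 0.78 at *Cyp4a32* -2134. Line and sex cannot be told apart in this difference.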

How the results depend on the processing

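The 3 rises and 2 falls of Cyp4a RNA were called under DESeq2 as well. Counts of called Cyp4a peaks moved more. For GPS2 in *Ncor* LKO, 0 calls became 3 with TMM, 1 with DESeq2 and 7 with a mean of at least 10 tags (15.7% of all peaks), and ranged from 0 to 11 when single libraries were left out, with 11 without WT library 3. For GPS2 in *Ppara* KO, 0 became 2 with at least 10 tags (1.06% of all peaks). For NCOR in *Ppara* KO, 8 became 1 with DESeq2 and ranged from 4 to 8 over left-out libraries. For PPARα in *Gps2* LKO, 3 became 0 with TMM and 0 with DESeq2, and 9 with the 3 WT libraries as separate samples (36.6% of all peaks). For PPARα in *Ncor* LKO, 2 became 8 with TMM, 4 with DESeq2 and 1 with at least 10 tags, with a range of 1 to 6. For PPARα in *Ppara* KO the range was 0 to 8, with 0 without WT library 1 or WT library 2. For H3K27ac in *Gps2* LKO, 0 became 1 with DESeq2 and 2 over all peaks of the shared table, with a range of 0 to 5. For H3K4me3, 1 became 0 with DESeq2 and 0 over all peaks, with a range of 0 to 1. H3K27ac calls in *Ncor* LKO ranged from 8 to 17, with 8 without WT library 2, and calls of the difference between lines from 3 to 6. Leaving a library out of a group of 2 leaves a lone sample, taken to spread as the samples of the other arm do. The cause of these moves was not tested.

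Replicate numbers were shared between groups but were not taken to pair the samples: with 3 or more pairs the correlations of same-numbered deviations were not all above 0.1, and 2 pairs are too few to tell. With a replicate block the calls were 10 for GPS2 in *Ncor* LKO (18.6% of all peaks), 0 for PPARα in *Ncor* LKO, 0 for PPARα in *Ppara* KO, 9 for PPARα in *Gps2* LKO (36.1%), 4 for H3K27ac (4.23%) and 3 for H3K4me3 (2.38%) in *Gps2* LKO and 2 for the difference between lines (0.0697%). The block turned *Cyp4a12b* -154 (NCOR, *Gps2* LKO) to -0.11 and *Cyp4a12a* 27223 (PPARα, *Ncor* LKO) to 0.11.

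Among the peaks named by the fixed rule, directions turned with TMM and with DESeq2 at *Cyp4a10* -4180 (NCOR, *Ppara* KO, 0.27 and 0.27). For PPARα in *Gps2* LKO they turned at *Cyp4a10* -4222 (-0.17 and -0.16), *Cyp4a12a* 27218 (-0.26 and -0.24), *Cyp4a12b* -8935 (-0.30 and -0.34), *Cyp4a14* -1551 (-0.079 and -0.070), *Cyp4a31* -8003 (-0.11 and -0.099) and *Cyp4a32* -4018 (-0.078 and -0.070). For PPARα in *Ncor* LKO they turned at *Cyp4a10* -4205 (-0.0056 and -0.0038) and *Cyp4a32* -3983 (-0.088 and -0.082), and for PPARα in *Ppara* KO at *Cyp4a12b* -103 with DESeq2 (0.085). None of these peaks was called. Other peaks turned too, such as *Cyp4a14* 12600 (PPARα, *Ppara* KO, -1.32 to 0.16 with TMM).

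Leaving out single libraries turned directions within these log2 ranges. For NCOR in *Gps2* LKO they were -0.025 to 0.22 at *Cyp4a12a* -20685, -1.08 to 0.65 at *Cyp4a12b* -154, -0.43 to 0.44 at *Cyp4a14* -1439 and -0.52 to 0.11 at *Cyp4a31* -7989. For NCOR in *Ppara* KO they were -0.17 to 0.091 at *Cyp4a10* -4180 and -0.39 to 0.51 at *Cyp4a12b* -115. For PPARα in *Ncor* LKO they were -0.18 to 0.27 at *Cyp4a10* -4205, -0.48 to 0.24 at *Cyp4a12a* 27223, -0.0015 to 0.44 at *Cyp4a14* -1564, -0.15 to 0.35 at *Cyp4a31* -8056 and -0.31 to 0.25 at *Cyp4a32* -3983. For H3K27ac they were -0.34 to 0.070 at *Cyp4a12a* -20032 and -0.84 to 0.64 at *Cyp4a12b* -31 in *Gps2* LKO, and -0.15 to 0.094 at *Cyp4a10* -757 and -0.15 to 0.15 at *Cyp4a31* 643 in *Smrt* LKO.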
